A study of Mus musculus with 6 samples.

Results

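The genes described here are 9 members of the replication stress checkpoint and of the repair pathways that act at stalled replication forks: *Atr*, *Atrip*, *Chek1*, *Clspn*, *Tipin*, *Timeless*, *Brca1*, *Brca2* and *Fancd2*. They were chosen by name, from what the proteins are known to do, but with earlier results of these data known. They were matched by gene identifier and mouse symbol among the 54838 genes of a count table. All 9 had enough reads to be tested, among 11092 genes in all.

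The counts come from I1DN, a murine acute myeloid leukemia on a C57BL/6 background that carries IDH1R132H, DNMT3AR882H and NrasG12D and was made by transducing hematopoietic stem and progenitor cells of fetal liver with the 3 constructs. Stored cells of a diseased mouse were transplanted into sublethally irradiated congenic Ptprca recipients, so both groups share the alleles, the irradiation and the host. Mice received vehicle (3 libraries) or AG636, an inhibitor of the pyrimidine synthesis enzyme DHODH, given b.i.d. by gavage at 100 mg per kg (3 libraries). The leukemic cells were sorted from bone marrow and spleen, with a gate described once as cKit+CD11b- and once as cKit-high CD11b-low. The sources also differ on the length of treatment, with 1 day in one legend and 4 days in another. The age of the mice is not given in the sources used here.

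ATR is the kinase that responds to single-stranded DNA at slowed or stalled forks, to which its partner ATRIP brings it. With the help of the adaptor CLASPIN it phosphorylates CHK1, which holds back the cell cycle and the firing of new origins, and the TIMELESS-TIPIN complex travels with the fork and supports this signal. BRCA1, BRCA2 and FANCD2 protect the newly made strands of stalled forks and serve recombination and crosslink repair. The signal itself is carried by phosphorylation and ubiquitination, which transcript counts do not measure. DHODH inhibitors limit the supply of pyrimidine nucleotides for RNA and DNA, and the comparison asks whether the transcripts of these genes differed when that supply was limited.

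None of the 9 genes passed the test between AG636 and vehicle (0 of 9 lower and 0 of 9 higher at an adjusted p under 0.05, edgeR's quasi-likelihood test on the counts, p adjusted by Benjamini-Hochberg over all genes tested). Over all genes tested, 21.3% passed, 11.0% as lower and 10.3% as higher with AG636. DESeq2 and limma-voom also called 0 of the 9. Over all genes, DESeq2 called 1328 lower and 1166 higher, and limma-voom 1230 lower and 1142 higher. At an unadjusted p under 0.05 there was 1, *Atr*. The estimates of 7 genes lay below 0 and those of 2 above, between -0.37 for *Fancd2* and 0.08 for *Clspn* on the log2 scale, with a median of -0.13 against 0.03 over all genes tested. Of all genes tested, 47.7% had estimates below 0. The median size of the estimate, without its sign, was 0.13 for the 9 genes and 0.34 for all genes tested.

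In the fit of all libraries, the intervals of these estimates bounded the change. The 95% interval excluded a rise of 1.5-fold for 9 of 9 genes and a fall of 1.5-fold for 5 (*Chek1*, *Clspn*, *Tipin*, *Brca1* and *Brca2*), and it excluded a 2-fold change in either direction for all 9. A fall of 1.5-fold lay within the intervals of *Atr*, *Atrip*, *Timeless* and *Fancd2*. With single libraries left out, the estimates reached -0.29 for *Chek1* and -0.34 for *Tipin*, and the intervals of those fits are not given. The interval of *Atrip* also carries the limit of its counts that is described below.

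**Figure D1:**
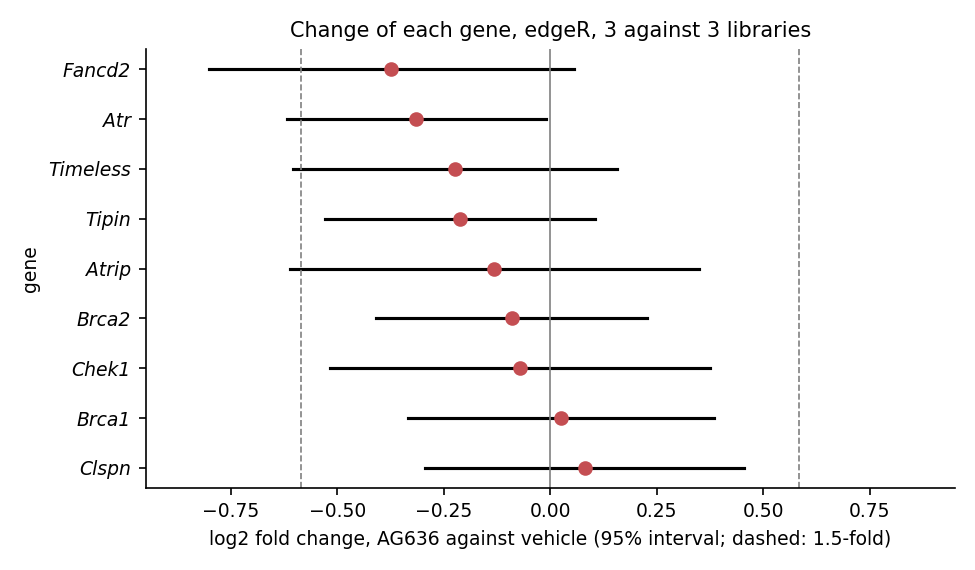
Change of each of the 9 genes with AG636 against vehicle. Points are edgeR log2 fold changes, lines are 95% intervals from 3 against 3 libraries, and dashed lines mark 1.5-fold. The interval of *Atr* ends just below 0, at -0.01, and the other 8 intervals include 0.

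The libraries held 4634963 to 7906589 counts assigned to genes, so that 3 counts correspond to 0.392 to 0.637 CPM, counts scaled to the size of the library. Library sizes were corrected by the TMM method, and because the libraries read only the 3′ end of each transcript, CPM can be compared between genes without a correction for length. The 9 genes had 546 to 6023 counts in total over the 6 libraries. Markers of mature neutrophils differed between the groups in the same libraries: 7 of 9 rose with AG636, with a summed level of 970 to 2318 CPM with vehicle and 2745 to 5628 CPM with AG636, and none of the 9 markers was at 0 in all 6 libraries. The AG636 sums were 5628, 2838 and 2745 CPM in replicates 1 to 3. Of all genes tested, 10.3% were called higher. Of 6 monocyte and macrophage markers 2 rose (sums of 43.7 to 67.5 CPM and 87.8 to 143 CPM). *Itgam*, which encodes the CD11b that the sort selected against, had 12.1, 18.3 and 27.0 CPM with vehicle and 60.1, 31.3 and 41.2 CPM with AG636, whereas *Kit*, the marker that the sort selected for, had 31.8 to 43.1 CPM and 37.3 to 46.3 CPM. The *Itgam* call (adjusted p = 0.0219, edgeR) was lost without Vehicle replicate 1 or 2 or AG636 replicate 1 or 3 (0.0530 to 0.0814, edgeR). Markers of immature myeloid cells, *Kit* included, had 0 of 7 calls (sums of 2441 to 4945 CPM and 1820 to 5152 CPM). Of 6 erythroid markers 1 fell (sums of 1539 to 4436 CPM and 1887 to 3142 CPM), 1 of 3 megakaryocyte markers rose (sums of 755 to 1179 CPM and 1003 to 1642 CPM), and B and T cell markers summed to at most 19.1 and 3.40 CPM. In such bulk libraries fewer cells of a type and less RNA per cell cannot be told apart, and the part of these markers in the values of the 9 genes was not tested.

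By their vehicle levels the 9 genes ran from 195 CPM down to 16.9 CPM. The lowest was *Atrip*, whose level and rank may be an undercount for the reason given below. *Tipin* was highest at 195 ± 19.8 CPM (SD, n = 3), above *Clspn* at 114 ± 13.9 CPM (SD, n = 3) in every library. *Timeless* (86.8 ± 17.9 CPM, SD, n = 3) and *Atr* (75.0 ± 6.07 CPM, SD, n = 3) came next, and their vehicle values overlapped with each other, as did those of *Clspn* and *Timeless*. *Brca2* stood apart from its neighbours on both sides at 49.8 ± 1.20 CPM (SD, n = 3). *Fancd2* (26.4 ± 4.57 CPM, SD, n = 3), *Brca1* (24.9 ± 0.862 CPM, SD, n = 3) and *Chek1* (24.0 ± 1.17 CPM, SD, n = 3) formed a group in which neighbours overlapped. *Atrip* was the lowest at 16.9 ± 3.48 CPM (SD, n = 3), below *Chek1* in all 3 libraries. Compared with the vehicle means of all genes tested, *Tipin* stood at the 90.8th percentile, *Atr* at the 73.7th, *Chek1* at the 43.3rd and *Atrip* at the 35.2nd.

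**Figure D2:**
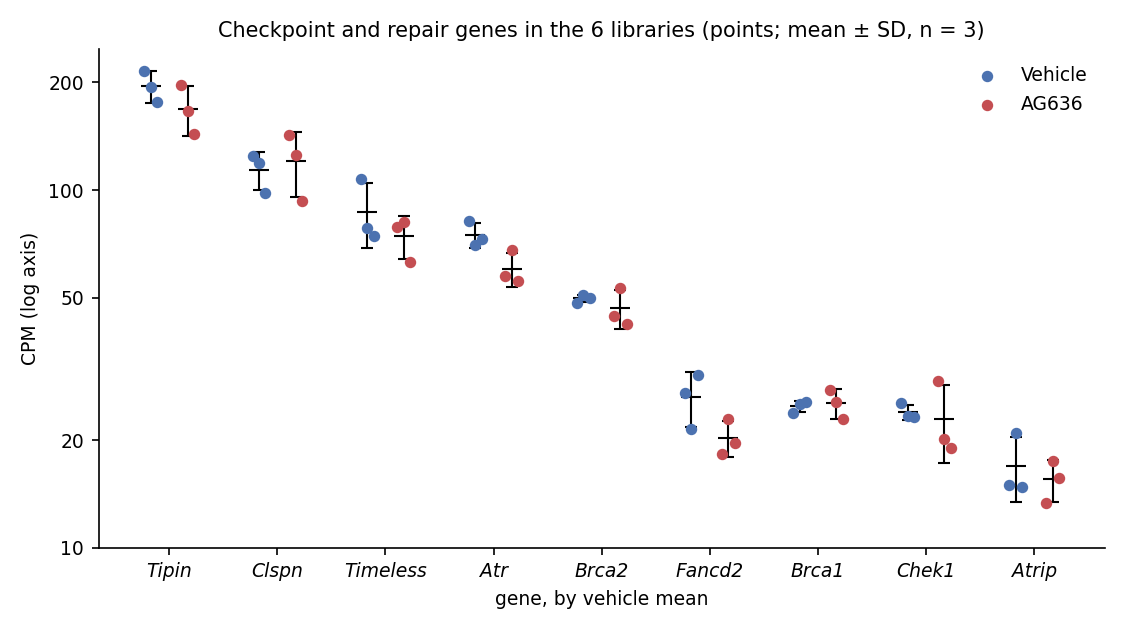
Levels of the 9 genes in each library, in CPM on a log axis. Points are libraries, in the order replicate 1 to 3 from left to right within a group, and black bars show mean ± SD (n = 3 per group). *Atr* is the gene whose groups do not overlap (70.2 to 81.8 CPM with vehicle and 55.7 to 67.8 CPM with AG636).

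*Atr*, the checkpoint kinase itself, lies on chromosome 9 from 95857597 to 95951781 (mm10, plus strand). It had 81.8, 70.2 and 72.9 CPM in the vehicle libraries and 57.3, 67.8 and 55.7 CPM in the AG636 libraries. All 3 AG636 values lay below all 3 vehicle values, the closest being 67.8 and 70.2 CPM. On the log2 scale the fold change was -0.31 (standard error, SE, 0.14, 95% interval -0.62 to -0.01), or 80.4% of the vehicle level. Its unadjusted p was 0.0439 and its adjusted p was 0.124 (edgeR). The exact two-sided permutation test of 3 against 3 gave p = 0.1, the smallest that this design allows. *Atr* was 1 of 9 genes (11.1%) whose groups did not overlap, where the groups did not overlap for 41.1% of all genes tested. When each library was left out in turn the estimate stayed between -0.41 and -0.26, and the adjusted p between 0.0769 and 0.318 (edgeR).

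*Atrip* encodes the partner that recruits ATR to RPA-coated DNA, and lies on chromosome 9 from 109057933 to 109074124 (minus strand). Its level was 14.98, 20.9 and 14.8 CPM with vehicle and 13.4, 17.5 and 15.7 CPM with AG636. The ranges overlapped, with replicate 2 the highest library of each group. The log2 fold change was -0.13 (SE 0.22, adjusted p = 0.694, edgeR), with an interval of -0.61 to 0.35, the widest of the 9.

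The *Atrip* value has a limit that comes from the annotation. All 1147 exon bases of *Trex1*, a DNA exonuclease gene, lie inside exons of *Atrip* on the same strand and share its 3′ end, and they make up 16.0% of the exon bases of *Atrip*. A 3′ read in that stretch belongs to both genes, and none was counted for *Trex1*, which had 0 counts in all 6 libraries. The level of *Trex1* could not be read from these counts. Those of *Atrip* may leave out reads at the 3′ end, where these libraries read. The limit holds for the level of *Atrip*, its fold change and the ratio of *Atr* to *Atrip*.

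**Figure D3:**
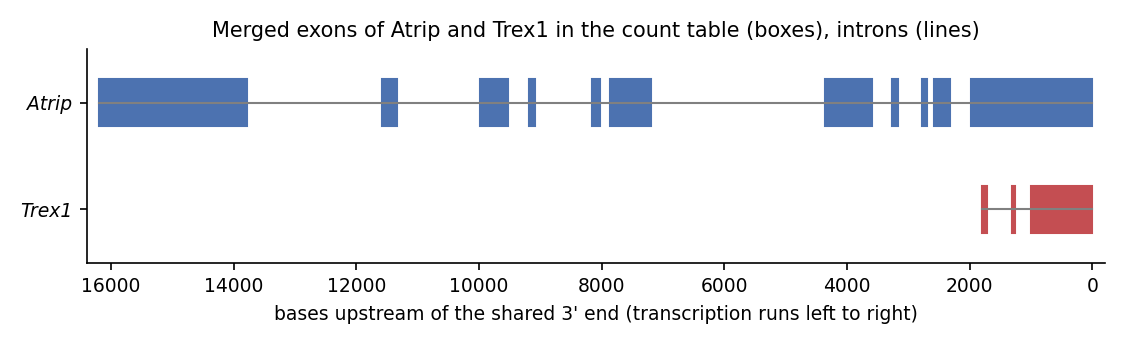
Exons of *Atrip* and *Trex1* in the count table, drawn by distance in bases from their shared 3′ end. Boxes are merged exons, lines are introns, and all 1147 exon bases of *Trex1* fall within the last exon box of *Atrip*.

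The next 4 genes act between ATR and the fork or pass its signal on. *Clspn* encodes CLASPIN, the adaptor through which ATR reaches CHK1, and lies on chromosome 4 from 126556935 to 126593903 (plus strand). It had 124, 119 and 98.0 CPM with vehicle and 143, 126 and 93.3 CPM with AG636. The AG636 libraries held both the highest and the lowest value of the 6. The log2 fold change was 0.08 (SE 0.17, 95% interval -0.29 to 0.46, adjusted p = 0.757, edgeR).

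*Chek1* encodes the effector kinase of the checkpoint and lies on chromosome 9 from 36708482 to 36727065 (minus strand). Its vehicle values of 25.3, 23.4 and 23.2 CPM were close together, with a coefficient of variation of 4.87%. The AG636 values of 29.3, 20.2 and 19.1 CPM fell on both sides of them, with a coefficient of variation of 24.6%. AG636 replicate 1 was above every vehicle library, and AG636 replicates 2 and 3 were below every one. The log2 fold change was -0.07 (SE 0.20, 95% interval -0.52 to 0.38, adjusted p = 0.823, edgeR).

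*Tipin* and *Timeless* encode the 2 subunits of the fork protection complex and lie on chromosome 9 from 64281581 to 64305424 and on chromosome 10 from 128232065 to 128252941, both on the plus strand. *Tipin* had 215, 194 and 176 CPM with vehicle and 197, 166 and 143 CPM with AG636. *Timeless* had 107, 78.5 and 74.6 CPM with vehicle and 79.0, 81.2 and 62.9 CPM with AG636. In both genes the groups overlapped, the highest value was that of Vehicle replicate 1 and the lowest that of AG636 replicate 3. The log2 fold changes were -0.21 for *Tipin* (SE 0.14, 95% interval -0.53 to 0.11) and -0.22 for *Timeless* (SE 0.17, 95% interval -0.60 to 0.16). In edgeR neither passed the test (adjusted p 0.312 for *Tipin* and 0.373 for *Timeless*).

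Of the genes for recombination and crosslink repair, *Brca1* lies on chromosome 11 from 101488764 to 101551955 (minus strand), and its product works with BARD1 in the choice and early steps of recombination. It had 23.9, 25.2 and 25.5 CPM with vehicle and 27.6, 25.6 and 22.8 CPM with AG636. *Brca2*, whose product serves recombination and fork protection, lies on chromosome 5 from 150522630 to 150570329 (plus strand) and had 48.5, 50.9 and 49.9 CPM with vehicle and 44.6, 53.4 and 42.3 CPM with AG636. For both genes the vehicle range lay inside the AG636 range. Their vehicle libraries varied least among the 9 genes, with coefficients of variation of 3.46% for *Brca1* and 2.41% for *Brca2*. The log2 fold changes were 0.03 for *Brca1* (SE 0.16, 95% interval -0.33 to 0.39, adjusted p = 0.924) and -0.09 for *Brca2* (SE 0.14, 95% interval -0.41 to 0.23, adjusted p = 0.680), both from edgeR.

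*Fancd2* encodes the protein that is ubiquitinated together with FANCI at crosslinks and stalled forks, and lies on chromosome 6 from 113531682 to 113597017 (plus strand). It had 27.1, 21.5 and 30.5 CPM with vehicle and 18.3, 22.9 and 19.6 CPM with AG636. The groups overlapped through Vehicle replicate 2 and AG636 replicate 2. Its log2 fold change of -0.37 lay farthest from 0 of the 9 (SE 0.19, 95% interval -0.80 to 0.06), and the adjusted p was 0.189 (edgeR). The exact two-sided permutation test gave p = 0.2. At its 3′ end *Fancd2* shares 257 exon bases with *Fancd2os* on the opposite strand, which had 0 counts. Whether the counting used strand is not given in the sources used here. The other exon overlaps of the 9 genes, in *Atr*, *Timeless* and *Brca2*, lay at least 9861 bases from the 3′ end of the gene.

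Across the 9 genes, AG636 replicate 3 was the lowest of the 6 libraries for 7 (*Atr*, *Chek1*, *Clspn*, *Tipin*, *Timeless*, *Brca1* and *Brca2*) and the highest for 0. AG636 replicate 1 was the lowest for the other two, *Atrip* and *Fancd2*, and the highest for 3 (*Chek1*, *Clspn* and *Brca1*). Summed over the 9 genes, the level was 669, 604 and 565 CPM with vehicle and 609, 580 and 475 CPM with AG636, so the groups overlapped. Without AG636 replicate 3 the estimates of 6 genes lay below 0 and their median was -0.11, and without AG636 replicate 1 all 9 lay below 0 with a median of -0.27. No gene of the 9 passed the test in any of these leave-one-out fits. Over all genes, those fits called 452 to 1298 lower and 399 to 1074 higher.

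Because both members of a protein pair are measured in the same library, their ratio does not depend on how the library was scaled. The log2 ratio of *Timeless* to *Tipin* was -1.002, -1.30 and -1.23 with vehicle and -1.31, -1.03 and -1.19 with AG636. The means of the groups differed by 0.005 on the log2 scale, against an SD of 0.16 with vehicle and 0.14 with AG636 (exact two-sided permutation p = 1.0). The ratio of *Fancd2* to its partner *Fanci* was 0.46, 0.37 and 0.78 with vehicle and 0.35, 0.33 and 0.13 with AG636. It was lower in every AG636 library than in any vehicle library, the closest values being 0.35 with AG636 and 0.37 with vehicle. The difference of the group means was -0.27 (exact two-sided permutation p = 0.1, the smallest possible, and 0.60 after Benjamini-Hochberg adjustment over 6 pairs). The differences for *Atr* to *Atrip* (-0.20), *Chek1* to *Clspn* (-0.16), *Brca1* to *Brca2* (0.12) and *Brca1* to *Bard1* (0.20) came with overlapping groups and exact two-sided permutation p between 0.3 and 0.6, and 0.72 after adjustment. *Fanci* shares 921 exon bases at its 3′ end with *Polg* on the opposite strand, which had 1589 counts against 570 for *Fanci*.

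Values follow for 10 kinases, activators and partners chosen for their roles, of which 9 are reported. *Topbp1* and *Etaa1*, whose products activate ATR, had log2 fold changes of -0.07 and 0.07. *Atm* and *Chek2*, the kinases of the sister pathway that responds to double-strand breaks, had -0.16 and -0.06, and *Wee1*, a brake on cyclin-dependent kinases, had -0.05. *Bard1*, *Palb2* and *Fanci* lay between -0.18 and 0.08. None of these 8 passed the test in edgeR, and in each the groups overlapped. Of all genes tested, 21.3% passed, and the groups did not overlap for 41.1%. *Cdc25a*, the phosphatase that CHK1 marks for destruction, had 108, 88.7 and 91.5 CPM with vehicle and 83.5, 64.3 and 64.9 CPM with AG636. All 3 AG636 values lay below the vehicle values, the log2 fold change was -0.44 (SE 0.15) and the adjusted p was 0.060 (edgeR).

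The pathway around the 9 genes was covered by 5 lists, of 96 genes together, which include the 9. Of the 94 tested, 9 fell and 2 rose (11.7% called, against 21.3% of all genes), and the median log2 fold change was -0.11. *Fan1* and *Hus1b* were too low to test. These counts depend on single libraries: there were 0 lower and 0 higher without AG636 replicate 3, 1 and 2 without AG636 replicate 1, 6 and 1 without AG636 replicate 2, 3 and 0 without Vehicle replicate 1, 4 and 0 without Vehicle replicate 2, and 9 and 3 without Vehicle replicate 3. Over all genes the calls also went from 1222 lower and 1146 higher to 452 and 399 without AG636 replicate 3. With library size alone in place of TMM, 913 genes were lower and 1483 higher. The called genes below are named by their adjusted p, so groups that lie apart in the same libraries add no separate support. The groups did not overlap for 33.0% of the 94 genes and for 41.1% of all genes tested.

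Among 13 genes of ATR activation tested, 1 fell (7.69%, against 21.3% of all genes called and 11.0% called lower). This was *Rad9a*, a subunit of the 9-1-1 clamp that activates ATR through TOPBP1, with 32.6, 24.2 and 25.3 CPM with vehicle and 14.7, 20.4 and 14.7 CPM with AG636. Every AG636 library was below every vehicle library, and the log2 fold change was -0.72 (SE 0.21, adjusted p = 0.0352, edgeR). The last 222 exon bases of *Rad9a* overlap *Ppp1ca* on the opposite strand, which had 15888 counts against 735. The call was lost with library size alone (adjusted p = 0.0529) and without Vehicle replicate 1 or 2 or AG636 replicate 1 or 3 (0.0589 to 0.120, edgeR). In the list of fork protection and CHK1 signaling, 1 of 15 genes rose and 0 fell (6.67% called, against 21.3% of all genes). The gene that rose, *Cdc25b*, encodes a phosphatase that promotes entry into mitosis. It had 29.1, 35.6 and 34.5 CPM with vehicle and 46.1, 48.7 and 68.3 CPM with AG636. Its groups were also apart, and its call was lost without Vehicle replicate 1 or 2 or AG636 replicate 3 (adjusted p of 0.0615 to 0.0966, edgeR), with a full-data log2 fold change of 0.72 (SE 0.18, adjusted p = 0.0234, edgeR).

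Homologous recombination had 30 genes tested, of which 4 fell (13.3%, against 21.3% of all genes called and 11.0% called lower). *Mre11a*, the nuclease that begins the resection of breaks, had 62.6, 54.3 and 57.7 CPM with vehicle and 33.6, 45.0 and 38.5 CPM with AG636, below vehicle in 3 of 3 libraries (log2 fold change -0.58). The others were *Polq* (-0.69), a polymerase of the end-joining route that competes with recombination, *Swi5* (-0.50) and *Xrcc3* (-0.75), both of which assist recombination, the latter named after its value was seen. The adjusted p was 0.0302 for *Polq*, 0.0322 for *Swi5* and 0.0430 for *Xrcc3* (edgeR). *Polq* was not called without Vehicle replicate 1 or AG636 replicate 1 or 3 (0.0604 to 0.110). *Swi5* was not called with library size alone (0.0601) or without Vehicle replicate 2 or any AG636 replicate (0.0665 to 0.109). *Xrcc3* was not called without any 1 of the 6 libraries, with DESeq2 (0.0629), with library size alone (0.0646), with no filter (0.0532) or after thinning (0.0509). *Brca1* and *Brca2* were not among the genes that fell. The *Mre11a* estimate became -0.48 with an adjusted p of 0.0931 without AG636 replicate 1, and its adjusted p lay between 0.0536 and 0.0931 when any library but Vehicle replicate 3 or AG636 replicate 2 was left out (edgeR).

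Of 17 Fanconi anemia genes tested, 3 fell (17.6%, against 21.3% of all genes called and 11.0% called lower). Estimates of 14 lay below 0 (median -0.24), as did those of 47.7% of all genes tested. *Faap24*, which targets the anchor protein FANCM to DNA, had 30.8, 25.4 and 27.6 CPM with vehicle and 13.2, 19.2 and 12.6 CPM with AG636. No AG636 library reached a vehicle library, and the log2 fold change was -0.90 (SE 0.21, adjusted p = 0.0165, edgeR). Without AG636 replicate 1 or 3 the adjusted p was 0.0611 or 0.0664 (edgeR). *Faap24* shares 138 exon bases at its 3′ end with *Rhpn2* on the opposite strand, which had 4 counts against 721. *Fance* (-0.65), which links the core ligase complex to FANCD2, and *Faap100* (-0.61), a subunit of that complex, also fell, with adjusted p of 0.0225 and 0.0313 (edgeR). *Fance* was not called without Vehicle replicate 1 or 2 or AG636 replicate 1 or 3 (0.0686 to 0.0791). *Faap100* was not called with library size alone (0.0507) or without any 1 library except Vehicle replicate 3 (0.0644 to 0.0991). *Fancd2*, the substrate of the complex, and *Fanci* did not pass the test.

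In fork remodelling and translesion synthesis, 1 of 19 genes fell and 1 rose (10.5% called, against 21.3% of all genes). *Recql4*, a RecQ helicase, had 30.5, 16.9 and 16.9 CPM with vehicle and 11.0, 8.66 and 9.25 CPM with AG636, a log2 fold change of -1.15 (SE 0.27, adjusted p = 0.0180, edgeR). The groups were apart, and Vehicle replicate 1 was well above the other two vehicle libraries. *Recql4* shares 422 exon bases at its 3′ end with *Mfsd3* on the opposite strand, which had 260 counts against 524. *Polk*, a translesion polymerase, had 11.6, 9.42 and 15.5 CPM with vehicle and 18.9, 25.2 and 22.1 CPM with AG636, higher in every AG636 library (log2 fold change 0.87, SE 0.23, adjusted p = 0.0259, edgeR). *Recql4* lost its call without AG636 replicate 3 (adjusted p = 0.0640), and *Polk* lost its call without any library but Vehicle replicate 3 and AG636 replicate 1 (adjusted p of 0.0587 to 0.0884, edgeR).

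**Figure D4:**
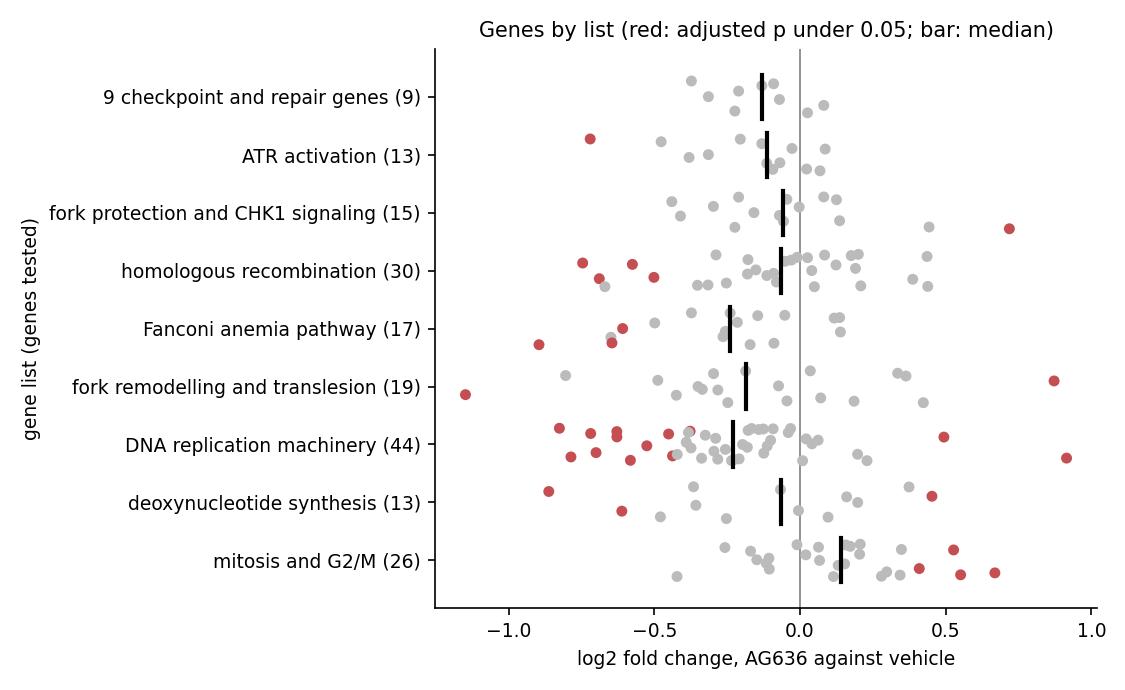
Log2 fold changes of the genes tested in each list (points, AG636 against vehicle), with the number of genes in parentheses. Red points passed an adjusted p under 0.05 and black bars are list medians. The row of the 9 genes holds 0 red points, and the row of DNA replication machinery holds 11 at negative and 2 at positive values. Of all genes tested, 21.3% passed. A difference between these rows, of 9 and 44 genes, was not tested.

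Lists of genes for DNA replication, mitosis and deoxynucleotide synthesis are given for comparison. Of 44 genes of the DNA replication machinery 11 fell and 2 rose (29.5% called, against 21.3% of all genes, median -0.23). The numbers without each library in turn ran from 0 to 10 lower and 0 to 2 higher. *Mcm10*, *Orc2* and *Pold2* fell with the lowest adjusted p, and *Pold4* and *Ticrr* rose. At its 3′ end *Orc2* shares 1150 exon bases with *Nif3l1* on the opposite strand, which had 894 counts against 2849. *Ticrr* shares 51 there with *Kif7*, also on the opposite strand, which had 30 counts against 1039. *Ticrr* passed narrowly (adjusted p = 0.0496, edgeR) and was not called with DESeq2, median-of-ratios size factors, no filter, 10 counts in every sample or thinning (0.0503 to 0.113), nor without any 1 library except AG636 replicate 2 (0.0940 to 0.168). Of 26 genes of mitosis and G2/M, 0 fell and 4 rose, among them *Nusap1*, *Ccnb2* and *Kif23* (15.4% called, median 0.14). Of 13 genes of deoxynucleotide synthesis, 2 fell (*Dut* and *Dctd*) and 1 rose (*Samhd1*), or 23.1% called. Whether the 9 checkpoint and repair genes differ from these lists was not tested.

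Promoter sequences were compared because genes of replication and repair are often driven by E2F factors, and those of mitosis by factors that bind the CHR element. RefSeq windows (GRCm38.p6) from 250 bases before to 50 bases after the start were at hand for 7 of the 9 genes, *Tipin* and *Fancd2* being the other two. The letters TTTCCCGC, TTTGGCGC, TTTCGCGC or TTTGCCGC of E2F sites, on either strand, occurred in 2 of the 7 (*Clspn* and *Brca2*), against 2.26% of 32851 windows and 37.0% of the 46 windows of the DNA replication machinery. CCAAT occurred in 3 of the 7 (*Atrip*, *Clspn* and *Brca1*), against 37.4% of all windows. The GC box GGGCGG occurred in 2 (*Atr* and *Atrip*), against 35.7%. The CHR letters TTTGAA or TTTAAA occurred in 0 of the 7, against 27.6% of all windows and 85.7% of the 21 windows of mitosis genes. No motif was shared by more than 3 of the 7 promoters. The 3 windows below show 1 example of each kind of match, 5′ to 3′ along the gene, with the matched letters of either strand in capitals.
Atr, GC boxes, chr9:95857477-95857596, plus strand, 120 bases that end just before the start: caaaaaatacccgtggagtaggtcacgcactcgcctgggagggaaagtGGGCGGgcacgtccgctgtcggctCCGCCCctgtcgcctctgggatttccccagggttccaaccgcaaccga
Brca1, CCAAT box, chr11:101551956-101552075, minus strand, 120 bases that end just before the start: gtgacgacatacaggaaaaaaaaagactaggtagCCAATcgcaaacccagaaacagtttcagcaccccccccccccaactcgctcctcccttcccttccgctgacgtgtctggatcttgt
Brca2, E2F letters, chr5:150522371-150522490, plus strand, from 250 to 131 bases before the start: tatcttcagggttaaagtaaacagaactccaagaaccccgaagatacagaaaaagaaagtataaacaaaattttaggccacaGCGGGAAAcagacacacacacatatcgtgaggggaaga
The capitals in the *Brca2* window are TTTCCCGC on the opposite strand. Such matches describe letters only, and the log2 fold changes of the 3 genes shown were -0.31, 0.03 and -0.09.

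The genes whose levels followed the 9 most closely over the 6 libraries were found by the Pearson correlation of log2 CPM with the mean of the 9 genes, each centred on its own mean. That mean was 0.14, 0.06 and 0.01 in the vehicle libraries and -0.003, 0.02 and -0.23 in the AG636 libraries. The 5 highest were *Zfp511* (r = 0.994), *Kel* (0.990), *Sept4* (0.987), *Caml* (0.986) and *Sptb* (0.986). *Kel* and *Sptb* encode the Kell antigen and beta spectrin of the red cell, and the erythroid markers summed to 4436, 2889 and 1539 CPM with vehicle and 2344, 3142 and 1887 CPM with AG636. The erythroid sum was lowest in Vehicle replicate 3, and the mean of the 9 genes in AG636 replicate 3. A link between the erythroid markers and the 9 genes was not tested. None of the 5 passed the test between the groups. With 6 libraries in 2 groups and 11092 genes to choose from, these correlations are a description.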

How the data were processed

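RNA from sorted I1DN cells of 3 vehicle and 3 AG636 samples was sequenced from the 3′ end (QuantSeq). The authors deposited raw read counts per gene, without normalization. Per the labels, reads were checked with FastQC, trimmed with cutadapt 1.9.1, mapped to GRCm38/mm10 with HISAT2 2.0.4 and counted with featureCounts of Subread 1.5.0-p3, whereas the methods of the study name other versions of cutadapt and Subread. The strand setting and the annotation release are not given in the sources used here. Groups and replicate numbers came from the labels, and no sample column was left out (0 unused). The 54838 identifiers were matched to GENCODE mouse symbols for 54723, of which 98.7% had the same start and end there. The gene length column of the deposited table was not used.

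Testing used edgeR 4.0.16 in R 4.3.3 (filterByExpr at 10 counts and 15 in total, TMM, quasi-likelihood test, Benjamini-Hochberg adjustment over all 11092 genes tested, call at an adjusted p under 0.05). The standard error is the log2 fold change divided by the square root of F. The study used limma, so limma-voom (limma 3.58.1) was an alternative, as was DESeq2 1.42.0. The median biological coefficient of variation was 0.167 and the median standard error 0.20. Single values were also compared with the exact permutation test of 3 against 3. The fits were tested on simulated data. Within groups, the chi-square statistic per degree of freedom between replicates was 6.22 to 14.6, so each sample was counted once. The labels do not say that replicates are separate mice, and a legend of the study does. If they were not, the p-values would measure technical spread. No molecular identifiers are described, so the floor of 3 counts covers counting error only.

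The 9 genes, the lists, the pairs, the motifs and the markers were chosen with earlier results of these data known. Named besides the 9 were the called genes of each list, at most 3 a direction by adjusted p, 10 partners and kinases (1 of which is not reported here), the 5 genes most alike, *Kit* and *Itgam*. Alternatives were other tools, size factors, filters and thresholds, thinning to the smallest total, a replicate block and leaving out each library. Figures were drawn with matplotlib.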

Additional observations from a re-analysis of the deposited data

How the results depend on the processing

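None of the 9 genes passed the test in any of 14 other fits, 8 with another tool, scaling, filter, block or depth and 6 without 1 library. Calls over all genes also fell in some of these fits. They went from 1222 lower and 1146 higher to 452 and 399 without AG636 replicate 3. The fits share libraries, so they add no separate support. The lowest adjusted p was 0.0769 (edgeR, *Atr* without AG636 replicate 2). The median of the 9 stayed between -0.27 and -0.04. Estimates near 0 changed sign. Library size alone gave *Chek1* 0.017, *Topbp1* 0.020, *Fanci* 0.0011, *Wee1* 0.043 and *Chek2* 0.034, thinning gave *Brca1* -0.012, and no filter gave *Brca1* -0.00091. Without 1 library, estimates ran from -0.239 to 0.049 for *Atrip*, -0.291 to 0.046 for *Chek1*, -0.060 to 0.237 for *Clspn*, -0.043 to 0.097 for *Brca1*, -0.140 to 0.029 for *Topbp1*, -0.079 to 0.179 for *Palb2*, -0.158 to 0.011 for *Fanci*, -0.155 to 0.068 for *Wee1*, -0.140 to 0.025 for *Chek2* and -0.070 to 0.093 for the ratio of *Timeless* to *Tipin*. *Cdc25a* passed the test with no filter (-0.465) and with the replicate block (-0.445).

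Counts of calls moved more. An adjusted p under 0.01 left 325 lower and 231 higher of all genes, and 0 in the pathway, DNA replication, deoxynucleotide and mitosis lists. Without 1 library, all genes ranged from 452 to 1298 lower and 399 to 1074 higher, the pathway lists from 0 to 9 lower and 0 to 3 higher, DNA replication from 0 to 10 and 0 to 2, deoxynucleotide synthesis from 0 to 3 and 0 to 1, and mitosis from 1 to 4 higher. Library size alone gave 5 lower and 4 higher in the pathway lists and 7 lower in DNA replication, and no filter gave 4 higher in the pathway lists and 4 lower in deoxynucleotide synthesis. A fold of at least 1.5 left 6 lower and 1 higher in DNA replication, 0 higher in deoxynucleotide synthesis and 1 higher in mitosis. In DNA replication 1 gene was higher with DESeq2, median-of-ratios size factors, no filter, 10 counts in every sample, the replicate block or thinning. In fork protection and CHK1 signaling, where 0 genes had fallen, some alternatives called genes lower. There was 1 with DESeq2, median-of-ratios size factors, 10 counts in every sample, the replicate block or thinning, and 2 with no filter. In the same list 2 genes were higher, in place of 1, with library size alone, no filter or the replicate block. The causes were not tested, except that a stricter threshold leaves fewer calls by construction.

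The replicate numbers share only a number: deviations from the group means correlated at -0.06, -0.18 and 0.22 for same-numbered libraries. With the numbers as a replicate block, 1046 genes were lower and 914 higher, and 0 of the 9 were called. Of the list genes named, *Rad9a* (adjusted p = 0.0618), *Mre11a* (0.0504), *Swi5* (0.0627), *Xrcc3* (0.0706), *Faap100* (0.0544) and *Ticrr* (0.0839) were not called with the block (edgeR). Among the 9 genes *Atrip* had the fewest counts, 546, and the largest standard error, 0.22.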
